A study of Mus musculus with 10 samples.

Results

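The genes described here copy chromosomal DNA and supply its building blocks. They are 48 protein-coding genes, fixed by symbol: origin licensing factors, helicase activators, the sliding clamp and its loader, replicative polymerases, factors of the lagging strand, enzymes of deoxynucleotide synthesis, histone and chromatin factors of S phase, and 3 regulators of S phase entry. All 48 symbols matched 1 row each of the 55414 genes in the count table, and all 48 were among the 14669 genes with enough counts to be tested. Transcripts with a poly(A) tail were sequenced from macrophages of mouse spleen, pulled out with magnetic beads by F4/80, a protein on the surface of tissue macrophages. There were 5 libraries labelled Fpr2KO, also written Fpr2-/- by the submitters, and 5 from wild-type C57BL/6N mice (WT). Fpr2 is a formyl peptide receptor of myeloid cells. The labels leave out the strain on which the knockout was made, the removed part of the gene, and the sex and age of the mice. Nor do the labels say whether each replicate was its own animal, and p-values therefore reflect the scatter among these libraries alone, part of which may be technical.

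Before S phase, the origin recognition complex, Cdc6 and Cdt1 load rings of Mcm2 to Mcm7 onto DNA. Cdc45 and the GINS complex turn each ring into an active helicase, DNA polymerase alpha with primase starts new strands, and polymerases delta and epsilon extend them on the Pcna clamp. Most of these genes are switched on together at the entry into S phase by the E2F transcription factors, so their transcripts mark dividing cells. Mature red pulp macrophages divide little, whereas the mouse spleen also makes red blood cells from rapidly dividing precursors, many of them bound to macrophages.

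Reads per library totalled 15865820 to 19060188 counts. Fpr2 had 0 reads in each Fpr2KO library and 325 to 574 reads in the WT libraries, which matches the labels. Macrophage identity was checked with 15 genes of splenic macrophages, whose summed level was 9937 to 12669.6 CPM (read counts divided by the TMM-scaled size of the library, as edgeR's cpm gives them) in Fpr2KO and 9897 to 12892 CPM in WT. The highest of them was Vcam1, at 2116 ± 324 CPM in Fpr2KO and 2119 ± 317 CPM in WT (SD, n = 5 each). Over the whole table, edgeR's quasi-likelihood test called 10 genes (0.0682%) at an adjusted p, here FDR, under 0.05, and 1 of them (0.00682%) was higher in Fpr2KO. Of the 15 macrophage genes 0 were called. Cd163, with the smallest p of the 15, averaged 383 ± 23 CPM in Fpr2KO and 279 ± 39.8 CPM in WT (SD, n = 5 each). Its groups were separate, as they were in this direction for 0.825% of all genes, and it had an FDR of 0.135 by edgeR and of 0.0041 by DESeq2. By edgeR its FDR was 0.0356 with no filter on low counts, 0.0409 with the replicate number as a block and 0.0373 without WT replicate 5.

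Start sites of 40 of the 48 genes were matched in RefSeq's promoter windows for GRCm38.p6, which run from 250 bases before to 50 bases after a transcription start. Letters of the E2F motif were searched on both strands as TTTGGCGC, TTTCCCGC, TTTCGCGC or TTTGCCGC, and matches on opposite strands could overlap each other. At least 1 match lay in the windows of 15 of the 40 genes (37.5%), against 2.6% of the 27025 genes in the RefSeq table and 4.68% of the 10416 of them that were tested here. A match is a description of the letters, and base composition was not matched. The stretches below are shown because they hold these matches, in capitals, in genes of licensing and chromatin whose levels follow, and for Rrm2 the CCAAT box of the gene with the smallest p-value. Each reads 5′ to 3′ on the strand of the gene.
Mcm6: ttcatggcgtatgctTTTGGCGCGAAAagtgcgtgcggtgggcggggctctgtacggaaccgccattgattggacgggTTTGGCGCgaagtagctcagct
Mcm5: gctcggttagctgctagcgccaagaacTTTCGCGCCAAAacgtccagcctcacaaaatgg
Orc1: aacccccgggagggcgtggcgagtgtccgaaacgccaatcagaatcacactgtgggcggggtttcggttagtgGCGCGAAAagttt
Cdc6: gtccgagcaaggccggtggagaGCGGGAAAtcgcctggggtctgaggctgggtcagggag
Uhrf1: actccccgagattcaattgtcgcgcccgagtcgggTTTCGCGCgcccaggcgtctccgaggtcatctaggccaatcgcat
Rrm2: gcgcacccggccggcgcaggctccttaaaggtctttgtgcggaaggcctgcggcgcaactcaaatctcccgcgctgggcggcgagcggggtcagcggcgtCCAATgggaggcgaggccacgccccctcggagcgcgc

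The stretch of Mcm6 lies at chr1:128359731-128359830 on the minus strand, 125 to 26 bases before the start, with 3 matches, the first 2 overlapping on opposite strands. The stretch of Mcm5 lies at chr8:75109329-75109388 on the plus strand, 180 to 121 bases before the start, with 2 overlapping matches. The stretch of Orc1 lies at chr4:108579354-108579439 on the plus strand, 100 to 15 bases before the start, and its last 17 bases fall in a GENCODE exon of Orc1. The stretch of Cdc6 lies at chr11:98907991-98908050 on the plus strand, 160 to 101 bases before the start, in an intron of the GENCODE gene. The stretch of Uhrf1 lies at chr17:56304093-56304172 on the plus strand, 220 to 141 bases before the start, in an intron of the GENCODE gene. The stretch of Rrm2 lies at chr12:24708104-24708240 on the plus strand, 150 to 14 bases before the start. The other genes with an E2F match were Cdt1, Gins3, Lig1, Mcm3, Mcm7, Pola1, Pold1, Pold3, Pole2 and Rfc3. The CCAAT box, bound by NF-Y and searched as CCAAT on both strands, lay in the windows of 24 of the 40 genes, of 41.1% of all 27025 genes and of 42.9% of those tested. TTTGAA, the cell cycle homology region (CHR) known from mitotic genes, lay in 5 of the 40 (12.5%), in 20.2% of all genes and in 14.8% of those tested. Among 18 genes of mitosis set beside the 48, 15 had a window, and 10 of these (66.7%) held TTTGAA while 1 (6.67%) held an E2F match. The 15 replication genes with an E2F match had a median log2 fold change of 0.23 (Fpr2KO over WT, described next), and the 25 without it one of 0.25.

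Replication genes had slightly higher estimates in Fpr2KO almost throughout, by amounts that did not pass the test for any single gene. Of the 48, 47 had a log2 fold change above 0, against 53.2% of all genes tested, and their median was 0.23, with quartiles of 0.12 and 0.31, against a median of 0.01 over all genes. At an unadjusted p under 0.05, 20 of the 48 were higher in Fpr2KO and 0 lower, whereas 4.88% of all genes were higher and 4.92% lower. The 48 genes and the lists below were chosen with earlier results of these data known. The counts therefore describe these genes and are no independent evidence. None of the 48 passed the FDR of 0.05 by edgeR. DESeq2 passed 1 of them, Rrm2, and 0.586% of all genes as higher, and limma voom passed 0 of the 48. DESeq2 gave 18 of the 48 as higher at an unadjusted p under 0.05 (4.83% of all genes) and 47 above 0 (50.8%). In Rfc3 and Rrm2 all 5 Fpr2KO libraries lay above all 5 WT libraries, which held for 0.825% of all genes, and the opposite held for 0 of the 48 and 0.566% of all genes. In RNA from mixed cells, a larger number of cells using these genes and more RNA per cell cannot be told apart. The count of 20 was between 11 and 23 in the fits that left out 1 library: 13 without WT replicate 1 (3.51% of all genes), 11 without WT replicate 2 (3.3%) or 3 (3.78%), and 12 without Fpr2KO replicate 1 (3.47%). Without Fpr2KO replicate 2 it was 21, against 9.29% of all genes, and without WT replicate 4 it was 19, against 7.15%. In the other fits without 1 library the share of all genes was 3.21% to 4.8%. These shares are the background of the counts by role and list below. Groups of 4 and 5 libraries separate more easily than 5 and 5: the count of genes with separate groups was 8 without WT replicate 5 (1.83% of all genes), 6 without Fpr2KO replicate 5 (1.45%) and 5 without Fpr2KO replicate 2 (2.67%). Rrm2 passed the FDR without WT replicate 5 (log2 fold change 0.75, FDR = 0.0232 by edgeR). In that fit 23 of the 48 were higher at an unadjusted p under 0.05 against 4.14% of all genes, 47 were above 0 against 50.9%, and 0.228% of all genes passed the FDR as higher. With the mean level of erythroid genes as a covariate the count of 20 became 0, as described below.

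**Figure D1:**
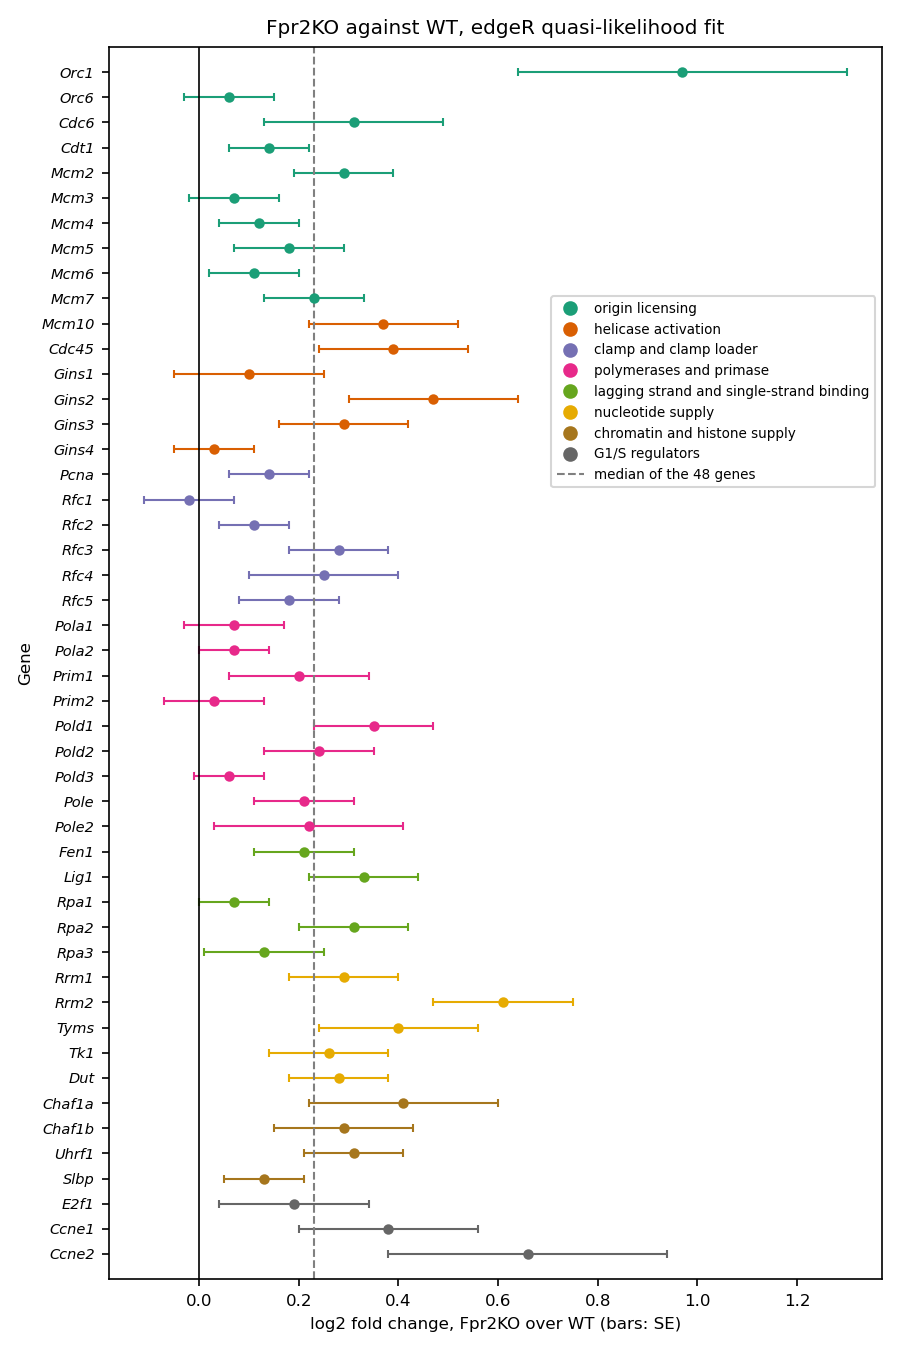
Log2 fold change of each of the 48 replication genes, Fpr2KO over WT (x axis), with its SE as a bar, by edgeR on 5 libraries a group. Genes run down the page by role (colour). All points but that of Rfc1 lie right of 0, and most lie between 0 and 0.5.

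Origin licensing genes had higher estimates in 10 of 10 cases, with a median log2 fold change of 0.16, and 3 had an unadjusted p under 0.05, between 2 and 4 in the fits without 1 library. Orc1, the largest subunit of the origin recognition complex (chromosome 4, 108579423 to 108614833), had 3.19, 2.73, 2.80, 3.06 and 1.98 CPM in Fpr2KO replicates 1 to 5, against 1.02, 1.13, 0.468, 2.17 and 2.16 CPM in WT replicates 1 to 5. Those values rest on 237 reads in Fpr2KO and 121 reads in WT, and WT replicates 4 and 5 lay above Fpr2KO replicate 5, so the groups overlapped. Its estimate was the largest of the 48 and had the largest SE (log2 fold change 0.97, SE 0.33, FDR = 0.364 by edgeR). Mcm2, a subunit of the helicase ring (chromosome 6, 88883474 to 88898780), had 51.3, 45.3, 54.5, 59.6 and 46.4 CPM in Fpr2KO replicates 1 to 5, against 42.6, 37, 35.9, 46.9 and 47.3 CPM in WT replicates 1 to 5 (log2 fold change 0.29, SE 0.10, FDR = 0.388 by edgeR). Fpr2KO replicates 2 and 5 lay below WT replicates 4 and 5. The Mcm7 subunit averaged 64.6 ± 5.04 CPM in Fpr2KO and 55 ± 7.42 CPM in WT (SD, n = 5 each; log2 fold change 0.23, SE 0.10, FDR = 0.461 by edgeR), and 33.4% of the 31-base sequences of its transcripts also occur in other genes. Within the same ring, Mcm3, Mcm4, Mcm5 and Mcm6 had log2 fold changes of 0.07, 0.12, 0.18 and 0.11, with SEs from 0.08 to 0.11. The loaders Cdc6 and Cdt1 had 0.31 (SE 0.18) and 0.14 (SE 0.08), and Orc6, the smallest subunit of the origin recognition complex, 0.06 (SE 0.09).

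Helicase activation genes followed the same direction, 6 of 6 above 0 with a median log2 fold change of 0.33, and 4 had an unadjusted p under 0.05, 3 without WT replicate 1, 4 or 5 or Fpr2KO replicate 3 or 4, and 2 without WT replicate 2 or 3 or Fpr2KO replicate 1 or 2. Gins2, a GINS subunit (chromosome 8, 120578633 to 120589304), had 6.90, 5.58, 5.47, 8.91 and 6.47 CPM in Fpr2KO replicates 1 to 5, against 4.01, 5.67, 4.27, 5.42 and 4.71 CPM in WT replicates 1 to 5 (log2 fold change 0.47, SE 0.17, FDR = 0.388 by edgeR). Fpr2KO replicate 4 was the highest, and WT replicate 2 lay above Fpr2KO replicates 2 and 3. Exons of Gse1 on the opposite strand cover 67.3% of the exon bases of Gins2, and the strand setting of the counting is not given, so its count is uncertain. Cdc45, which joins the ring with GINS, had 13.1, 13.3, 12, 12.1 and 8.90 CPM in Fpr2KO replicates 1 to 5, against 8.27, 10.1, 6.56, 9.82 and 10.5 CPM in WT replicates 1 to 5 (log2 fold change 0.39, SE 0.15, FDR = 0.424 by edgeR). Fpr2KO replicate 5 lay inside the WT range, and the other 4 Fpr2KO libraries lay above all of WT. Mcm10, an initiation factor that binds the active helicase, averaged 8.50 ± 1.29 CPM in Fpr2KO and 6.59 ± 1.04 CPM in WT (SD, n = 5 each; log2 fold change 0.37, SE 0.15, FDR = 0.443 by edgeR). On the log2 scale Gins1 differed by 0.10 (SE 0.15), Gins3 by 0.29 (SE 0.13) and Gins4 by 0.03 (SE 0.08). The GINS subunits act as 1 complex, yet their estimates spread from 0.03 to 0.47, and the differences among them were not tested.

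Clamp and clamp loader genes showed small estimates with a median log2 fold change of 0.16, 5 of 6 above 0, and 1 had an unadjusted p under 0.05 (2 without Fpr2KO replicate 2 or 5). Rfc3, a loader subunit (chromosome 5, 151642756 to 151651242), had 15.3, 13.9, 14.2, 14.9 and 14.5 CPM in Fpr2KO replicates 1 to 5, against 12.4, 10.3, 10.9, 12.6 and 13.6 CPM in WT replicates 1 to 5. The lowest Fpr2KO library lay above the highest WT library by less than 1 CPM, and the estimate did not pass (log2 fold change 0.28, SE 0.10, FDR = 0.397 by edgeR). Pcna, the clamp itself, was the most abundant of the 48 per length, at 81.7 CPM per kilobase of exon in Fpr2KO and 74.2 in WT. Picked out for that level, it had 201, 217, 198, 181 and 184 CPM in Fpr2KO replicates 1 to 5, against 199, 192, 163, 171 and 166 CPM in WT replicates 1 to 5, a log2 fold change of 0.14 (SE 0.08). WT replicates 1 and 2 lay inside the Fpr2KO range, and 23.3% of its 31-base sequences are shared with the pseudogene Pcna-ps2. Of the other small loader subunits, Rfc5 averaged 21.9 ± 1.67 CPM in Fpr2KO and 19.4 ± 2.07 CPM in WT (SD, n = 5 each; log2 fold change 0.18, SE 0.10, FDR = 0.572 by edgeR). Rfc4 averaged 11.9 ± 2.21 CPM in Fpr2KO and 9.95 ± 1.47 CPM in WT (SD, n = 5 each; log2 fold change 0.25, SE 0.15, FDR = 0.604 by edgeR), and the log2 fold change of Rfc2 was 0.11 (SE 0.07). Rfc1, the large loader subunit, was the single gene of the 48 with an estimate below 0, with 58.7, 72.6, 68, 73.4 and 68 CPM in Fpr2KO replicates 1 to 5, against 70.8, 64.1, 60.4, 76.3 and 73.8 CPM in WT replicates 1 to 5 (log2 fold change -0.02, SE 0.09, FDR = 0.96 by edgeR). Apart from Fpr2KO replicate 1, the lowest of the 10, all Fpr2KO values lay within the WT range.

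**Figure D2:**
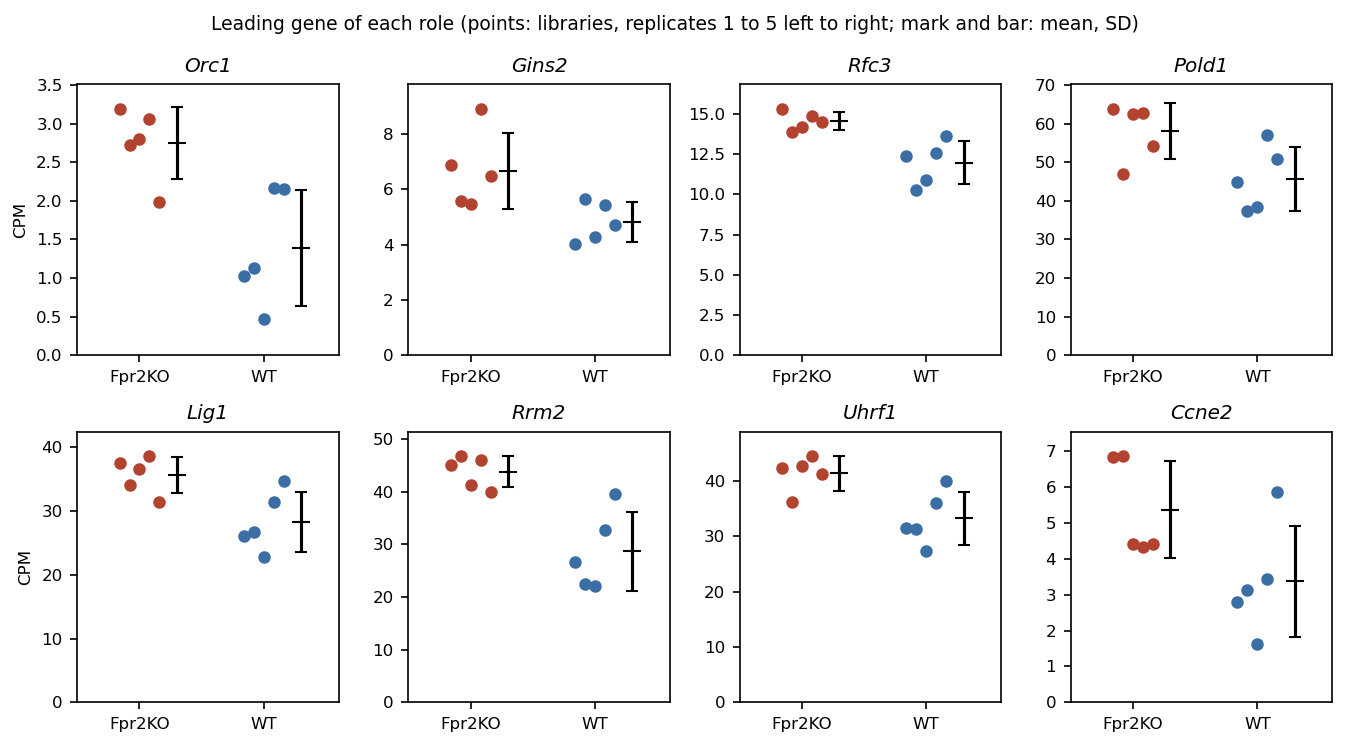
CPM of the gene with the smallest p-value in each role, 1 point per library, with mean and SD (n = 5 each), Fpr2KO left of WT in each panel. The groups are separate for Rfc3 and Rrm2 and overlap for Orc1, Gins2, Pold1, Lig1, Uhrf1 and Ccne2.

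Polymerase and primase genes were above 0 in 9 of 9 cases with a median log2 fold change of 0.20, from 0.06 without Fpr2KO replicate 2 to 0.25, and 1 had an unadjusted p under 0.05 (3 without WT replicate 5 or Fpr2KO replicate 5, and 2 without Fpr2KO replicate 2 or 3). Pold1, the catalytic subunit of DNA polymerase delta (chromosome 7, 44532746 to 44548849), had 63.8, 47, 62.5, 62.8 and 54.2 CPM in Fpr2KO replicates 1 to 5, against 44.8, 37.3, 38.4, 57.1 and 50.8 CPM in WT replicates 1 to 5 (log2 fold change 0.35, SE 0.12, FDR = 0.397 by edgeR). Fpr2KO replicates 1, 3 and 4 were above all WT libraries, while Fpr2KO replicate 2 was below WT replicates 4 and 5. Its partner subunit Pold2 averaged 22.1 ± 2.77 CPM in Fpr2KO and 18.7 ± 2.26 CPM in WT (SD, n = 5 each; log2 fold change 0.24, SE 0.11, FDR = 0.516 by edgeR), and Pold3 differed by 0.06 (SE 0.07) on the log2 scale. Pole, the catalytic subunit of polymerase epsilon, averaged 17.7 ± 1.53 CPM in Fpr2KO and 15.3 ± 1.53 CPM in WT (SD, n = 5 each; log2 fold change 0.21, SE 0.10, FDR = 0.518 by edgeR), and its partner Pole2 had a log2 fold change of 0.22 (SE 0.19). Polymerase alpha and primase start each new strand. Pola1 and Pola2 both had 0.07 (SE 0.10 and 0.07), Prim1 had 0.20 (SE 0.14) and Prim2 0.03 (SE 0.10).

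Lagging strand and single-strand binding genes were above 0 in 5 of 5 cases with a median log2 fold change of 0.21, and 2 had an unadjusted p under 0.05 (3 without Fpr2KO replicate 2 or 5). Lig1, the ligase that joins Okazaki fragments (chromosome 7, 13277283 to 13311433), had 37.4, 34, 36.5, 38.5 and 31.4 CPM in Fpr2KO replicates 1 to 5, against 26, 26.6, 22.8, 31.3 and 34.6 CPM in WT replicates 1 to 5 (log2 fold change 0.33, SE 0.11, FDR = 0.356 by edgeR). WT replicate 5 lay above Fpr2KO replicates 2 and 5, and the other WT libraries lay below all of Fpr2KO. Rpa2, a subunit of the single-strand binding protein RPA (chromosome 4, 132768332 to 132778752), had 26.3, 21.9, 25.9, 29 and 20.2 CPM in Fpr2KO replicates 1 to 5, against 18.8, 19.9, 18.7, 20.6 and 21.5 CPM in WT replicates 1 to 5 (log2 fold change 0.31, SE 0.11, FDR = 0.371 by edgeR). Fpr2KO replicate 5 lay below WT replicates 4 and 5. The other RPA subunits, Rpa1 and Rpa3, had 0.07 (SE 0.07) and 0.13 (SE 0.12) on the log2 scale. Fen1, the flap endonuclease, averaged 27.8 ± 3.50 CPM in Fpr2KO and 24.1 ± 2.33 CPM in WT (SD, n = 5 each; log2 fold change 0.21, SE 0.10, FDR = 0.537 by edgeR), but 84.2% of its exon bases overlap exons of genes on the opposite strand, so reads of Fen1 and of Tmem258 or Gm10143 cannot be told apart without a known strand setting.

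Nucleotide supply genes held the smallest p-value of the 48, and 5 of 5 had an unadjusted p under 0.05, with a median log2 fold change of 0.29. That count was 1 without WT replicate 2, 2 without WT replicate 1 or 3 or Fpr2KO replicate 1, and 3 without Fpr2KO replicate 4. Rrm2, the small subunit of ribonucleotide reductase, whose level limits deoxynucleotide synthesis in S phase (chromosome 12, 24708241 to 24714146), had 45.1, 46.7, 41.2, 46 and 40 CPM in Fpr2KO replicates 1 to 5, against 26.6, 22.4, 22, 32.8 and 39.5 CPM in WT replicates 1 to 5. Every Fpr2KO library lay above every WT library, with Fpr2KO replicate 5 less than 1 CPM above WT replicate 5, and the fold of 1.53 did not pass over all genes (log2 fold change 0.61, SE 0.14, FDR = 0.168 by edgeR). DESeq2 called it (log2 fold change 0.60, FDR = 0.0156). Dut, which removes dUTP, had 22.4, 19.7, 22.4, 24.1 and 18.8 CPM in Fpr2KO replicates 1 to 5, against 16.3, 15.8, 16.9, 19.6 and 20.1 CPM in WT replicates 1 to 5 (log2 fold change 0.28, SE 0.10, FDR = 0.417 by edgeR). WT replicates 4 and 5 lay above Fpr2KO replicate 5, and the other 3 WT libraries below all of Fpr2KO. Tyms, thymidylate synthase, averaged 11.9 ± 1.89 CPM in Fpr2KO and 8.99 ± 1.93 CPM in WT (SD, n = 5 each; log2 fold change 0.40, SE 0.16, FDR = 0.437 by edgeR), with overlapping groups. Rrm1, the large subunit of ribonucleotide reductase, differed by 0.29 (SE 0.11) on the log2 scale, and Tk1, the thymidine kinase of S phase, by 0.26 (SE 0.12).

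Chromatin genes of S phase were above 0 in 4 of 4 cases with a median log2 fold change of 0.30, and 2 had an unadjusted p under 0.05 (1 without WT replicate 1, 2 or 3 or Fpr2KO replicate 4 or 5, and 3 without WT replicate 5). Uhrf1, which brings the maintenance DNA methyltransferase to newly copied DNA (chromosome 17, 56303321 to 56323486), had 42.3, 36.1, 42.6, 44.4 and 41.2 CPM in Fpr2KO replicates 1 to 5, against 31.5, 31.3, 27.4, 36 and 39.9 CPM in WT replicates 1 to 5 (log2 fold change 0.31, SE 0.10, FDR = 0.337 by edgeR). Fpr2KO replicate 2 lay below WT replicate 5 and at the level of WT replicate 4, and 24.2% of the 31-base sequences of Uhrf1 are shared with other genes. Chaf1a, the large subunit of the histone chaperone CAF-1, averaged 17.1 ± 4.59 CPM in Fpr2KO and 12.9 ± 2.79 CPM in WT (SD, n = 5 each; log2 fold change 0.41, SE 0.19, FDR = 0.501 by edgeR), with exons of Ubxn6 on the opposite strand over 52.5% of its exon bases. Chaf1b, another subunit, averaged 9 ± 1.40 CPM in Fpr2KO and 7.38 ± 1.13 CPM in WT (SD, n = 5 each; log2 fold change 0.29, SE 0.14, FDR = 0.538 by edgeR). Slbp, which binds the stem-loop of histone mRNAs, differed by 0.13 (SE 0.08) on the log2 scale.

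Among the regulators of S phase entry, 3 of 3 were above 0 with a median log2 fold change of 0.38. An unadjusted p under 0.05 was reached by 2 of them, by 0 without WT replicate 1, 2 or 3 or Fpr2KO replicate 1, and by 1 without WT replicate 4 or Fpr2KO replicate 3, 4 or 5. Ccne2, cyclin E2 (chromosome 4, 11191351 to 11204779), had 6.83, 6.85, 4.40, 4.32 and 4.40 CPM in Fpr2KO replicates 1 to 5, against 2.80, 3.13, 1.64, 3.43 and 5.85 CPM in WT replicates 1 to 5 (log2 fold change 0.66, SE 0.28, FDR = 0.461 by edgeR). Fpr2KO replicates 1 and 2 were the highest, and WT replicate 5 lay above the other 3 Fpr2KO libraries. Ccne1, cyclin E1, averaged 8.31 ± 0.997 CPM in Fpr2KO and 6.38 ± 1.78 CPM in WT (SD, n = 5 each; log2 fold change 0.38, SE 0.18, FDR = 0.503 by edgeR). E2f1, an activating E2F factor, had 19.6, 11.6, 15.8, 17.1 and 18.9 CPM in Fpr2KO replicates 1 to 5, against 12.3, 12.5, 14.5, 18.7 and 14.8 CPM in WT replicates 1 to 5 (log2 fold change 0.19, SE 0.15, FDR = 0.703 by edgeR). Fpr2KO replicate 2 held the lowest of these 10 values.

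Levels per length ranged widely among the 48, from 0.79 CPM per kilobase in Fpr2KO and 0.399 in WT for Orc1 to the values of Pcna given above. After Pcna, Mcm4 (18 in Fpr2KO and 16.5 in WT), Mcm3 (16.5 in Fpr2KO and 15.6 in WT) and Mcm6 (16.8 in Fpr2KO and 15.5 in WT) followed in the WT order of CPM per kilobase, and their order was not tested. Sorted by this level in WT, the 16 highest genes had a median log2 fold change of 0.12 with 2 at an unadjusted p under 0.05, the 16 in the middle 0.26 with 8, and the 16 lowest 0.34 with 10. The sorting used the WT values that the fold change is also taken over, so part of this order may come from the sorting. Among the 32 of the 48 with under 10% of shared 31-base sequences and of exon overlap, 31 were above 0, and their median was 0.21. Of these 32, 12 had an unadjusted p under 0.05, against 6 without WT replicate 2 and 7 without WT replicate 3.

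**Figure D3:**
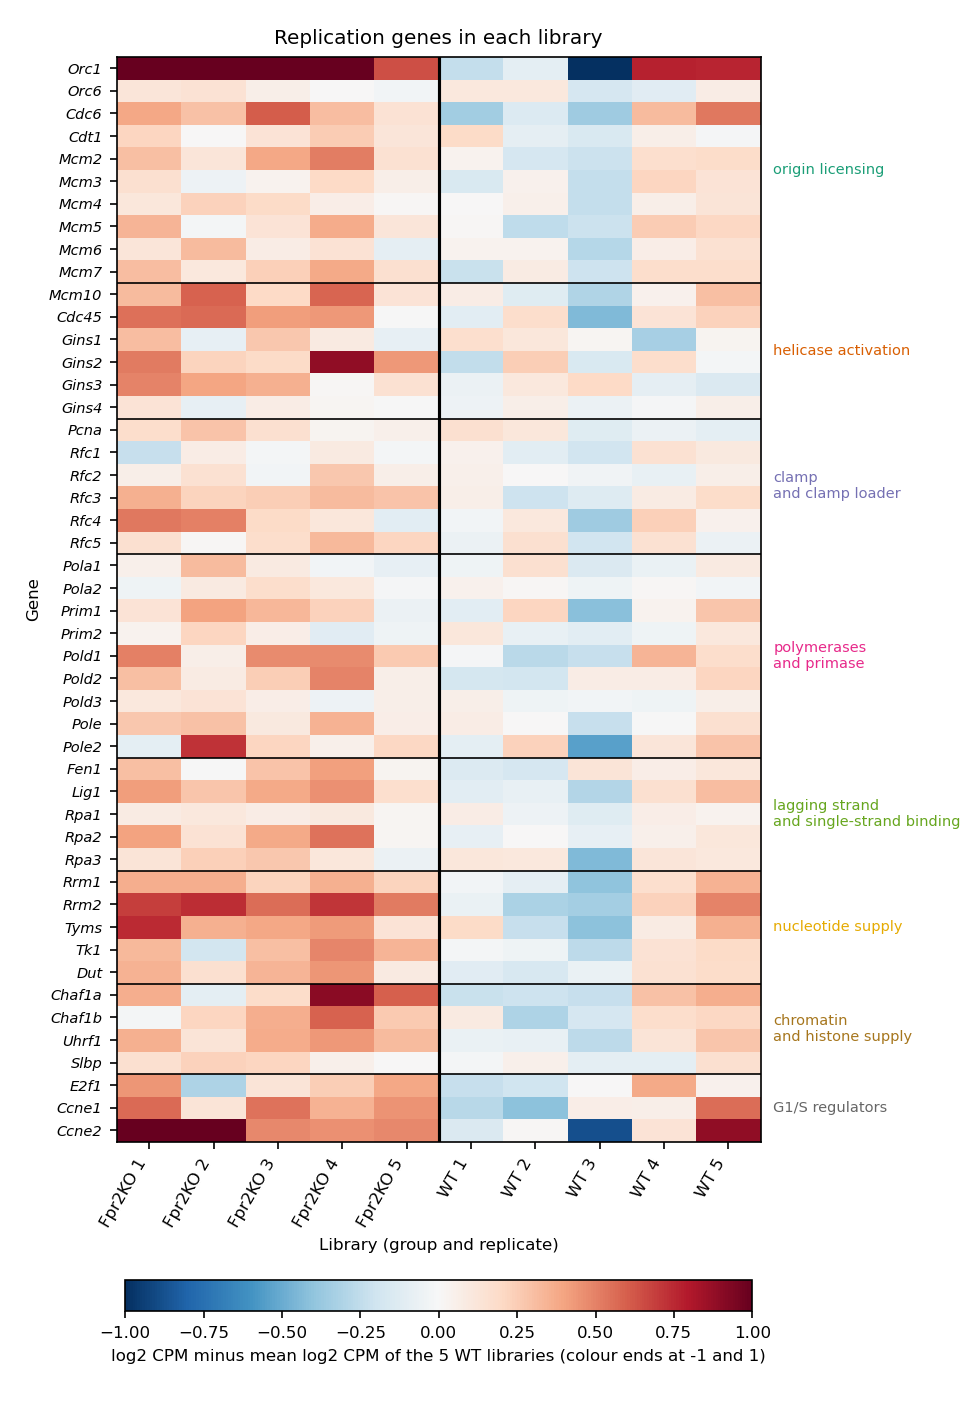
Level of each of the 48 genes (rows, by role) in each library (columns, Fpr2KO left of WT), as log2 CPM minus the mean log2 CPM of the 5 WT libraries. Red is higher and blue lower. The column of WT replicate 3 is blue in most rows, and those of WT replicates 4 and 5 hold more red than the other WT columns.

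The libraries of each group were spread out, and the groups overlapped. The 48 genes summed to 1709, 1664, 1672, 1739.6 and 1568 CPM in Fpr2KO replicates 1 to 5, against 1471, 1441, 1297, 1552 and 1600.3 CPM in WT replicates 1 to 5. WT replicate 5 thus lay above Fpr2KO replicate 5. WT replicate 3 held the lowest of the 10 values for 30 of the 48 genes, and Fpr2KO replicates 4, 2 and 1 the highest for 17, 16 and 10. The median gene lay 0.10 to 0.32 above the WT mean on the log2 scale in the Fpr2KO libraries, and between -0.20 (replicate 3) and 0.16 (replicate 5) around it in the WT libraries.

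Mitosis genes, listed for comparison, differed in the same direction. All 18 of them had estimates above 0, with a median log2 fold change of 0.51, and 17 had an unadjusted p under 0.05 (11 without WT replicate 3). None passed the FDR by edgeR on all libraries, and DESeq2 passed 6. Without WT replicate 5 edgeR passed 6, Birc5, Cdk1, Aurkb, Tpx2, Mki67 and Ccnb2 (FDR from 0.0208 to 0.0401), and with no filter on low counts it passed Ccnb1 (FDR = 0.0323). Tpx2, a spindle assembly factor, averaged 29.3 ± 1.64 CPM in Fpr2KO and 21.3 ± 3.14 CPM in WT (SD, n = 5 each; log2 fold change 0.46, SE 0.10) with separate groups. Ccnb1, cyclin B1, averaged 17 ± 3.17 CPM in Fpr2KO and 10.9 ± 1.96 CPM in WT (SD, n = 5 each; log2 fold change 0.65, SE 0.15), and its kinase Cdk1 18.5 ± 3.01 CPM in Fpr2KO and 11.2 ± 3.23 CPM in WT (SD, n = 5 each; log2 fold change 0.73, SE 0.18). Whether mitosis genes differed more than replication genes was not tested. They summed to 669, 747, 561, 599 and 502 CPM in Fpr2KO replicates 1 to 5, against 391, 389.6, 304, 435 and 606 CPM in WT replicates 1 to 5, so WT replicate 3 was again the lowest and WT replicate 5 the highest of its group.

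Other genes of DNA replication and its control were listed by role. Of 93 listed 92 were tested, 74 had estimates above 0 (53.2% of all genes), and their median log2 fold change was 0.12. Of the 92, 14 were higher and 1 lower at an unadjusted p under 0.05, against 4.88% and 4.92% of all genes. The count of 14 was 7 without Fpr2KO replicate 4 (3.21% of all genes) and 8 without WT replicate 1 (3.51%). It was 9 without WT replicate 3 (3.78%) or Fpr2KO replicate 3 (4.39%), and 23 without WT replicate 4 (7.15%). None passed the FDR by edgeR, and 3 did by DESeq2 (E2f2, Ccna2 and Tfdp2). In the E2F, cyclin and Rb network 6 of 26 were higher and 0 lower at an unadjusted p under 0.05. Without 1 library 4 to 6 were higher and 0 to 2 lower. Cdkn2c, a cyclin-dependent kinase inhibitor in this list, passed the FDR without WT replicate 5 (log2 fold change 0.76, FDR = 0.0417 by edgeR). E2f2, an E2F factor, averaged 68.6 ± 10.8 CPM in Fpr2KO and 47.5 ± 7.14 CPM in WT (SD, n = 5 each; log2 fold change 0.53, SE 0.12). It passed without Fpr2KO replicate 2 (FDR = 0.0429 by edgeR) and with no filter on low counts (FDR = 0.0451 by edgeR). Ccna2, cyclin A2, averaged 39.8 ± 4.36 CPM in Fpr2KO and 24.5 ± 7.52 CPM in WT (SD, n = 5 each; log2 fold change 0.70, SE 0.18), and passed without WT replicate 5 (FDR = 0.0244 by edgeR). Tfdp2, a partner of E2F factors, averaged 45.8 ± 9.93 CPM in Fpr2KO and 28.7 ± 6.58 CPM in WT (SD, n = 5 each; log2 fold change 0.67, SE 0.18). Among fork factors 3 of 16 were higher at that p, and 1 without Fpr2KO replicate 4 (3.21% of all genes). The count was 5 without Fpr2KO replicate 2 (9.29% of all genes) and 8 without WT replicate 4 (7.15%). The 3 were led by Clspn, a checkpoint adaptor at 12.2 ± 1.62 CPM in Fpr2KO and 8.64 ± 2.33 CPM in WT (SD, n = 5 each; log2 fold change 0.50, SE 0.17). The others were Chtf18 (log2 fold change 0.39) and Rnaseh2a (0.24). Brca1 was the 1 of 10 higher at that p (2 without WT replicate 4 and 3 without WT replicate 5) in the list of chromatin assembly and maintenance methylation, at 13.8 ± 1.80 CPM in Fpr2KO and 9.81 ± 1.94 CPM in WT (SD, n = 5 each; log2 fold change 0.49, SE 0.14), followed by the histone chaperone Asf1b (0.34) and the maintenance methyltransferase Dnmt1 (0.14). Among origin recognition and firing genes 1 of 13, Donson, was higher at that p (log2 fold change 0.19, SE 0.08), a count of 0 without WT replicate 1 or 2 or Fpr2KO replicate 2 or 4 and of 2 without WT replicate 4 or 5, with Ticrr at 0.34 (SE 0.16) and Mcmbp at -0.18 (SE 0.09). Purine and pyrimidine synthesis had 2 of 15, Umps (0.23, SE 0.10) and Impdh2 (0.17, SE 0.08), with Adsl next (0.17). That count was 0 without WT replicate 1 or 3 or Fpr2KO replicate 1 or 3, and 1 without WT replicate 2 or Fpr2KO replicate 4. Among 12 other deoxynucleotide enzymes Samhd1 was lower at that p, and no gene of this list was lower at it without WT replicate 3 or 4 or Fpr2KO replicate 1 or 4, and 2 were without Fpr2KO replicate 2. Samhd1 breaks down deoxynucleotides in cells that do not divide, and it averaged 711 ± 62.7 CPM in Fpr2KO and 819.7 ± 57.4 CPM in WT (SD, n = 5 each; log2 fold change -0.21, SE 0.08). The kinase Dtymk had a log2 fold change of 0.16. Counts of 1 in lists of 12 or 13 genes are near the shares of all genes, and are no result about those lists.

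Markers of other cell types, looked at beside these values, also had estimates away from 0. Of 20 erythroid genes 19 were tested, all 19 had estimates above 0, 18 had an unadjusted p under 0.05 (10 without Fpr2KO replicate 1, and 12 without WT replicate 1 or Fpr2KO replicate 2), and their median log2 fold change was 1.64. The most abundant of them, the globin gene Hbb-bs, averaged 4379 ± 1543 CPM in Fpr2KO and 2345 ± 970.2 CPM in WT (SD, n = 5 each). The whole erythroid list summed to 4795 to 11291 CPM in Fpr2KO and 1685 to 6722 CPM in WT, and among its genes in the table only Klf1, in WT replicate 3, was at 0 reads in a library. Without the 4 globin genes the sums were 576 to 1302 CPM in Fpr2KO and 132 to 552 CPM in WT, which do not overlap. By library the mean log2 CPM of the erythroid genes was 6.41, 6.02, 5.94, 5.33 and 5.85 in Fpr2KO replicates 1 to 5, against 4.42, 4.03, 2.52, 5.13 and 5.23 in WT replicates 1 to 5. By this mean, replicate 3 was lowest and replicates 4 and 5 highest among WT libraries, as for the replication genes. By the sum of the erythroid list, WT replicate 5 (4163 CPM) lay below WT replicates 1 (4336 CPM) and 2 (4553 CPM). In Fpr2KO the order differed: replicate 4 was lowest in erythroid genes and highest in replication genes.

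**Figure D4:**
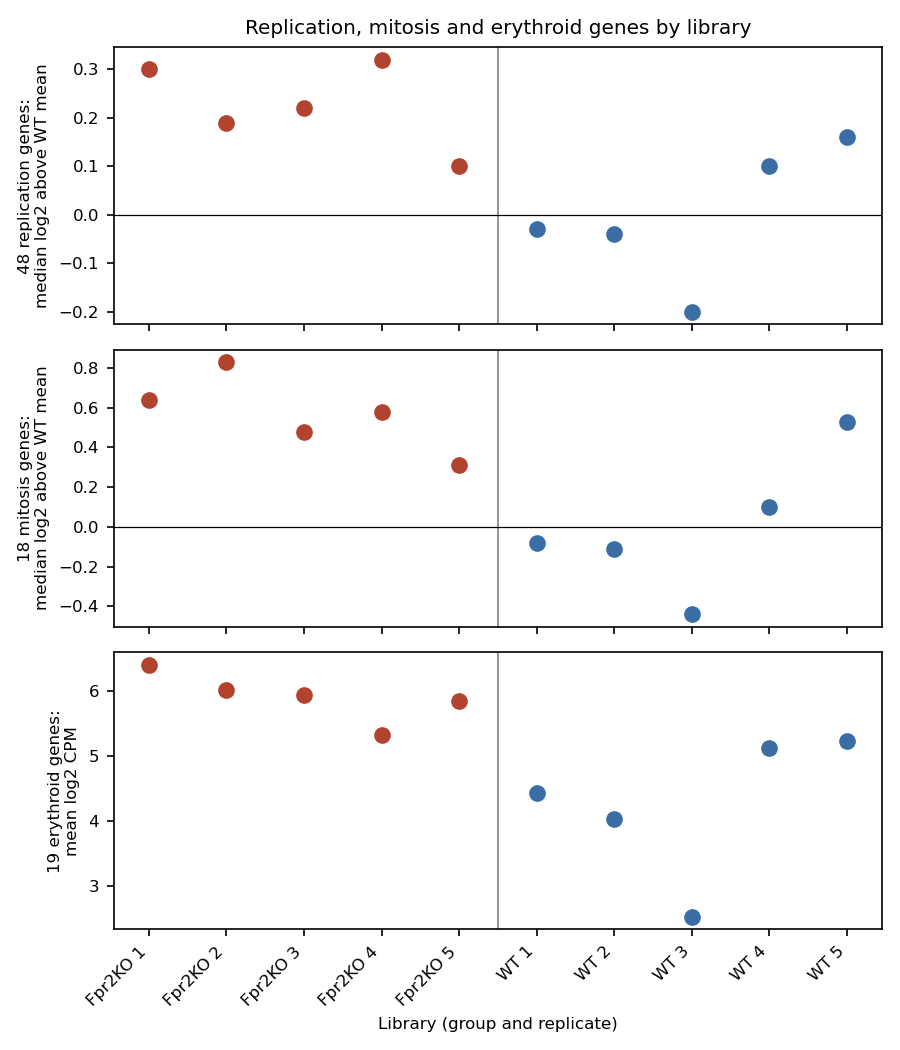
By library (x axis, Fpr2KO left of WT): the median over the 48 replication genes and over the 18 mitosis genes of log2 CPM minus the WT mean, and the mean log2 CPM of the 19 erythroid genes tested. WT replicate 3 is the lowest library in all 3 panels, and WT replicate 5 is the highest of its group in each.

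When the mean level of the erythroid genes was added to the fit as a covariate, the median log2 fold change of the 48 was 0.059, 30 had estimates above 0 against 50.7% of all genes, and 0 had an unadjusted p under 0.05 in either direction. Over all genes 1.49% were higher at that p, 0.0% passed the FDR as higher, and the log2 fold change was 0.23 (SE 0.16) for Rrm2 and 0.03 (SE 0.37) for Orc1. The covariate itself went with genotype over the 10 libraries (r = 0.745, a description of 10 libraries in 2 groups), so a part of genotype and a part of the erythroid level cannot be told apart here. Ccne2 and Pole2 had estimates below 0 in that fit (-0.20, SE 0.28, and -0.15, SE 0.26), whereas Gins2 had 0.47 (SE 0.25) and Gins3 had 0.39 (SE 0.21). For the mitosis genes the median in that fit was 0.09, with 12 of 18 above 0.

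**Figure D5:**
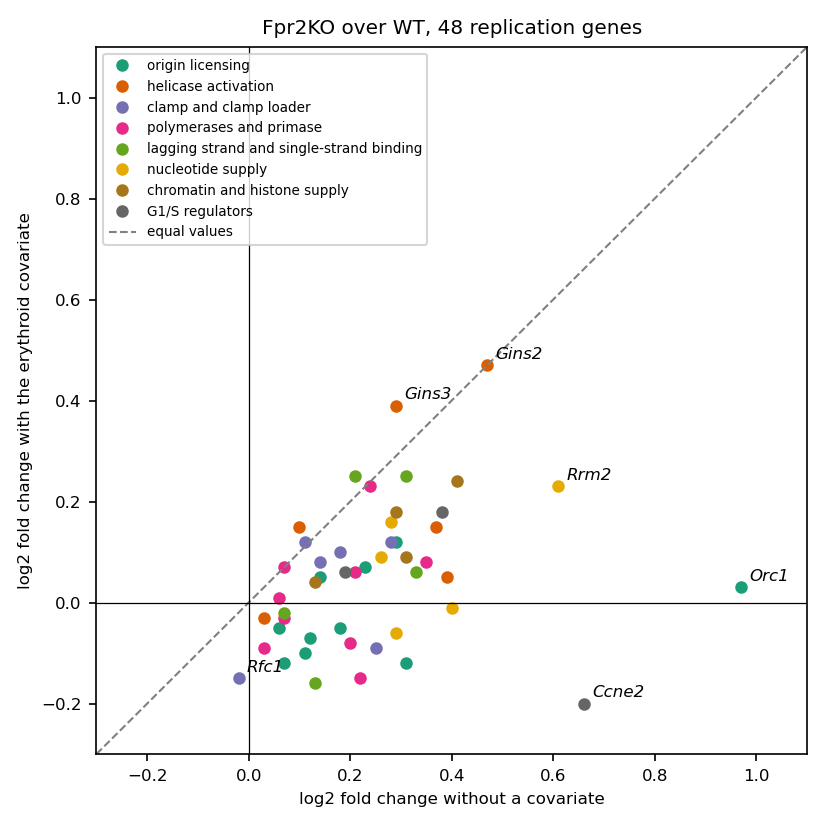
Log2 fold change (Fpr2KO over WT) of the 48 genes without a covariate (x axis) and with the mean erythroid level as a covariate (y axis), 1 point per gene, coloured by role. Most points lie below the dashed line of equal values, and 17 of those above 0 on the x axis lie below 0 on the y axis.

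B cells also divide in the spleen. The 8 B cell markers had estimates above 0, with a median log2 fold change of 0.21, and 3 had an unadjusted p under 0.05 (0 without WT replicate 2 or 3 or Fpr2KO replicate 1, 3 or 4). They summed to 3335 to 4470.4 CPM in Fpr2KO and 2559.7 to 3893 CPM in WT. Markers of germinal centre B cells, the dividing B cells of follicles, summed to 105 to 121 CPM in Fpr2KO and 111 to 133 CPM in WT, with a median log2 fold change of 0.05. Bcl6, the most abundant of them, averaged 83.7 ± 6.53 CPM in Fpr2KO and 90.8 ± 10.2 CPM in WT (SD, n = 5 each). Plasma cell markers summed to 2612 to 6711 CPM in Fpr2KO and 3044 to 6429 CPM in WT. T cell markers, with a median log2 fold change of 0.24, summed to 157 to 188 CPM in Fpr2KO and 138 to 185 CPM in WT. The most abundant T cell marker, Cd4, averaged 102 CPM in Fpr2KO and 107 CPM in WT, with a log2 fold change of -0.07. Cd3e, Cd3d, Cd3g and Trac, of the T cell receptor complex, averaged 1.46 to 3.7 CPM in either group. Their log2 fold changes were 0.42, 0.27, 0.20 and 0.48. Of the 8 T cell markers 0 had an unadjusted p under 0.05 (0 to 2 without 1 library). Granulocyte precursors, which also divide, had markers at sums of 13.1 to 22.9 CPM in Fpr2KO and 17.8 to 31.5 CPM in WT, with 0 of 7 estimates above 0. Stem and progenitor cell markers summed to 221 to 300.3 CPM in Fpr2KO and 230.1 to 310.2 CPM in WT. For mature neutrophils, classical monocytes and megakaryocytes all estimates were below 0. Over all genes, 4.92% were lower at an unadjusted p under 0.05, and 0.566% had every Fpr2KO library below every WT library. Mature neutrophil genes had a median of -0.71 and sums of 521 to 976 CPM in Fpr2KO and 919 to 1551 CPM in WT. Of these 8 genes 7 were lower at that p (5 to 8 without 1 library), and the groups were separate for Mmp8. Classical monocyte genes had a median of -0.76 and sums of 375 to 630.1 CPM in Fpr2KO and 599 to 1034 CPM in WT. Of these 6 genes 5 were lower at that p (3 to 6 without 1 library), and the groups were separate for Chil3. Megakaryocyte and platelet genes had a median of -0.77 and sums of 18.3 to 29.3 CPM in Fpr2KO and 23.3 to 43.9 CPM in WT. Of the 5 tested 3 were lower at that p (2 to 4 without 1 library). None of these genes passed the FDR by edgeR. DESeq2 passed 4 neutrophil, 2 monocyte, 1 megakaryocyte and 2 erythroid genes, against 185 of all 14669 genes in either direction. The share of reads from mitochondrial genes was 3.99%, 6.04%, 3.85%, 3.57% and 3.22% in Fpr2KO replicates 1 to 5, against 6.09%, 5.74%, 5.6%, 4.83% and 5.28% in WT replicates 1 to 5. Apart from Fpr2KO replicate 2, every Fpr2KO library lay below every WT library. The part of these cells and of RNA quality in the values of the replication genes was not tested, beyond the fit with the erythroid covariate.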

How the data were processed

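The 10 libraries were grouped by the genotype label and numbered by the sample titles. The deposited table holds raw read counts per gene, which the authors left without normalization, as the whole numbers and unequal totals show. Per the submitters' processing notes, HTSeq 0.10.0, FastQC 0.10.1 and the builds mm10 and GRCm38 were used. The sources used here do not give the aligner, the strand setting or the annotation release. Extraction (RNeasy Plus Universal Mini) and library construction (NEBNext Ultra II) are as given per the labels' protocols. Library totals of 15865820 to 19060188 counts set the precision of low genes.

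Symbols, coordinates, exon lengths, overlaps and shared 31-base sequences came from GENCODE M21 (GRCm38), which matched 52133 of 55414 identifiers. The fit used edgeR 4.0.16 under R 4.3.3 (filterByExpr, TMM, robust quasi-likelihood fit, two-sided test of Fpr2KO over WT, Benjamini-Hochberg over 14669 genes, FDR threshold 0.05). SE is the size of the log2 fold change over the square root of F. No gene list was tested as a set. The members and lists were chosen with earlier results of these data known. Named with full statistics were the 3 smallest p-values of each role or list, members with an extreme or negative fold change, and the most abundant cell type markers, and Pcna was added for its level. One gene that this rule takes is not reported here. Alternatives were RLE and upper quartile scaling, no filter, a filter of 1 CPM in 5 libraries, DESeq2 1.42.0, voom in limma 3.58.1, a replicate block, an erythroid covariate and each library left out. The fit was tested on simulated data with known changes. At the FDR it recovered 6.12% of changes of 1.25 fold, 40.8% of 1.5 fold, 80.9% of 2 fold and 91.7% of 3 fold. Of 114 calls in the simulated data 9 were false. Changes as small as most of those of the 48 genes would thus mostly be missed. All pairs of replicates differed by more than sampling noise.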

Additional observations from a re-analysis of the deposited data

Results flagged for a closer look

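In each of 2 genes, 1 library lay apart from the others of its group by Dixon's criterion for 5 samples. WT replicate 3 held 59.0 CPM of Mcm6, against 73.8 to 79.8 CPM in the other WT libraries. The same library held 8.61 CPM of Rpa3, a subunit of the single-strand binding protein, against 12.6 to 12.7 CPM in the other WT libraries. In all, 102 groups of 5 values were examined, and chance flags about 1 in 20 of them. WT replicate 3 was also the lowest WT library in the summed level of the 48 genes (1297 CPM) and of the mitosis genes (304 CPM), but neither sum lay apart by this criterion.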

How the results depend on the processing

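Under RLE scaling, upper quartile scaling, the stricter filter and limma voom, the 5 summary values and the 69 named fold changes kept their direction and their side of the threshold or moved by less than 1.5 times. Genes past the FDR numbered 10, against 62 with no filter, 185 by DESeq2, 64 with a replicate block, 5 with the erythroid covariate and 8 to 51 without 1 library. Of the 48 genes 0 passed, against 1 by DESeq2 and 0 to 1 without 1 library. The 20 genes higher at an unadjusted p under 0.05 became 0 with the erythroid covariate and 11 to 23 without 1 library. The count of genes with estimates above 0, a summary added after seeing the data, was 47, against 30 under the covariate and 45 to 48 without 1 library. The median log2 fold change of 0.225 was 0.059 under the covariate and 0.178 to 0.26 without 1 library. Genes with separate groups numbered 2, and 2 to 8 without 1 library. The cause of these changes was not tested.

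With the erythroid covariate the log2 fold change turned negative for Orc6 (-0.05), Cdc6 (-0.12), Mcm3 (-0.12), Mcm4 (-0.07), Mcm5 (-0.05), Mcm6 (-0.10), Gins4 (-0.03), Rfc4 (-0.09), Pola1 (-0.03), Prim1 (-0.08), Prim2 (-0.09), Pole2 (-0.15), Rpa1 (-0.02), Rpa3 (-0.16), Rrm1 (-0.06), Tyms (-0.01), Ccne2 (-0.20) and, outside the 48, Asf1b (-0.07). Without 1 library, 4 genes near 0 changed sign: Gins4 (-0.01 to 0.05), Rfc1 (-0.07 to 0.02), Pola1 (-0.005 to 0.11) and Prim2 (-0.02 to 0.07).

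Deviations of same-numbered libraries had r from -0.239 to 0.291 over the 5 numbers. Fpr2KO replicates 2 and 4 matched their own number best, and the other Fpr2KO libraries did not. The labels give no pairing, and 5 such correlations cannot decide whether the numbers pair libraries. The replicate block passed 64 genes and 0 of the 48, and of the other genes of replication and its control E2f2 (log2 fold change 0.53, FDR = 0.028 by edgeR). With that block 20 of the 48 were higher at an unadjusted p under 0.05, against 5.62% of all genes. Depth limits the genes with the fewest reads, Orc1 and Ccne2.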
